A study of Mus musculus with 12 samples.

Results

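The MHC class I presentation machinery was taken as 10 genes, H2-K1, H2-D1, B2m, Tap1, Tap2, Tapbp, Psmb8, Psmb9, Psmb10 and Nlrc5, and each was found by its gene symbol as 1 line of the 23282 lines of the deposited count table. All 10 passed the filter on low counts and were among the 13464 genes tested. The counts came from 12 MC38 tumors in 4 groups of 3. MC38, a colon carcinoma line of the mouse, had been injected subcutaneously into the right flank of wild-type female C57BL/6 mice bought at 6 weeks of age, and whole tumor tissue was taken on day 19.

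Con mice had received the vehicle (saline with DMSO and Tween 80) together with an IgG2a control antibody. SFIH mice had received 50 mg/kg of SFIH each day into the peritoneum, where SFIH is the hexane fraction of the root of Inula helenium, rich in the sesquiterpene lactones alantolactone and isoalantolactone. PD mice had received 200 μg of an anti-PD-1 antibody in 2 injections a week, and Comb mice both SFIH and the antibody at these doses. The SFIH mice also received the IgG2a antibody, and whether the PD mice received the vehicle of SFIH was not given in the sources used here. The host mice kept their own immune system, so that each library holds RNA of the injected cells together with RNA of the host cells in the tumor. With such bulk samples, fewer cells of a type and less RNA per cell cannot be told apart.

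MHC class I molecules show peptides from inside the cell to CD8+ T cells and to NK cells. A class I molecule is a heavy chain, such as H2-K or H2-D, paired with β2-microglobulin (B2m), and its peptides are cut by the proteasome, in which the interferon-inducible subunits Psmb8, Psmb9 and Psmb10 can take the place of Psmb5, Psmb6 and Psmb7. The transporter Tap1–Tap2 carries the peptides into the endoplasmic reticulum, tapasin (Tapbp) holds the empty class I molecule beside it, and Nlrc5 is the transactivator of the class I genes. Interferon gamma is known to raise most of these genes, and tumors are known to lose them as a way to escape T cells.

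On the annotation of the mouse genome, 7 of the 10 genes lie on chromosome 17 in the order Tapbp, H2-K1, Psmb9, Tap1, Psmb8, Tap2 and H2-D1. B2m lies on chromosome 2, and Psmb10 and Nlrc5 on chromosome 8. RefSeq promoter windows (GRCm38.p6, from 250 bases before to 50 bases after a start site) were at hand for 8 of the 10 genes, Tap2 and Nlrc5 being the exceptions. Of these, 5 are printed below because they carry the known regulatory motifs of the class I genes or are shared between a pair of members. Capitals mark a match to GAAANNGAAA (an interferon-stimulated response element), TTCNNNGAA (a gamma-activated site), GGGNNTTCC (a κB site) or ATTGG (a Y box), each searched on both strands, where no match overlapped another. The H2-K1 window lies at chr17:34000284-34000583 on the minus strand, the H2-D1 window at chr17:35262844-35263143 on the plus strand, the B2m window at chr2:122147437-122147736 on the plus strand, the Psmb8 window at chr17:34197945-34198244 on the plus strand and the Tap1 window at chr17:34187306-34187605 on the plus strand.
H2-K1: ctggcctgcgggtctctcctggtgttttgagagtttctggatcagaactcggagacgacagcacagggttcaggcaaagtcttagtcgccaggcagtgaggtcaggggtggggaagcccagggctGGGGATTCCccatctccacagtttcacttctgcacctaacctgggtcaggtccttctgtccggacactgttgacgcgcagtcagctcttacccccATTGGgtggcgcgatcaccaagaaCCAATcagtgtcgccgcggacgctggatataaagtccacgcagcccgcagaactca
H2-D1: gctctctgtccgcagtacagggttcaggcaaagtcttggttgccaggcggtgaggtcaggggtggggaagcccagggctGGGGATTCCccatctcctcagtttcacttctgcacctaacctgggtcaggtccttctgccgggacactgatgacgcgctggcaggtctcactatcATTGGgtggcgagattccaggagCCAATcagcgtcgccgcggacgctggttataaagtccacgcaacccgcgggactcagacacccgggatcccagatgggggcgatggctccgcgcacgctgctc
B2m: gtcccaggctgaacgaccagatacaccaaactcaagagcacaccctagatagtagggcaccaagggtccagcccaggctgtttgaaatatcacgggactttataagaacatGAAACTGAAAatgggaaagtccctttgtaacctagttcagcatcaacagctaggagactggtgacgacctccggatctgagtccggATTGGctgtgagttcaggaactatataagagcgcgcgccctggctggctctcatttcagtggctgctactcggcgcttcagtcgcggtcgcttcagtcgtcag
Psmb8: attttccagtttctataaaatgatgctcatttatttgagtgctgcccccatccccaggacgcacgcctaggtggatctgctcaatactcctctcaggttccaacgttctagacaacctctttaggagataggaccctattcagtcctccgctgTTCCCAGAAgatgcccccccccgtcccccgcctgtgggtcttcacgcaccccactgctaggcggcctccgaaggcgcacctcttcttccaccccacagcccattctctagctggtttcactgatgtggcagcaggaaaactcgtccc
Tap1: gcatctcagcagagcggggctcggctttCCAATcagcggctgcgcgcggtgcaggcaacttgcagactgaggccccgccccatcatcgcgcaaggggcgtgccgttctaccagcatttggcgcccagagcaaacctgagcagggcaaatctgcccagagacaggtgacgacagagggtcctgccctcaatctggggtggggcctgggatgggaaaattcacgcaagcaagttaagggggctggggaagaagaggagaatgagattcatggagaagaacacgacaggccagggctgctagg

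Both heavy chain windows hold the κB letters GGGGATTCC, from 125 to 117 bases before the H2-K1 start and from 171 to 163 bases before the H2-D1 start, and each also holds 2 Y boxes. A second H2-K1 window, not printed, holds the same κB letters from 111 to 103 bases before its start. Of all 32851 mouse windows of this length, 5.82% hold a κB match, 37.4% a Y box and 11.7% 2 or more Y boxes. The B2m window holds the response element GAAACTGAAA from 139 to 130 bases before its start, which 3.44% of the windows match, beside 1 Y box. The Psmb8 window holds the gamma-activated letters TTCCCAGAA from 97 to 89 bases before its start, which 8.30% of the windows match. Tap1 and Psmb9 are read in opposite directions from starts 226 bases apart, so that their windows share 275 bases and the 1 Y box in them. The Tapbp window holds 2 Y boxes and the Psmb10 window none of the 4 motifs. Such a match describes the letters in the window and was not tested as a binding site in these tumors.

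Total counts were between 7870741 and 12261032 per tumor, and the 10 genes took between 0.991% and 2.09% of them. Levels are given as CPM, the counts scaled to a library of fixed size after TMM normalization. QuantSeq reads start from the 3′ ends of transcripts, hence CPM was not divided by gene length and levels of different genes are compared as numbers of transcript ends. Comb replicate 3 stood apart from the other tumors, with the lowest TMM factor (0.760), the lowest sample weight in limma (0.0596) and transcripts of skeletal muscle at 6559 CPM, summed over 9 marker genes, against 10.5 to 16.1 CPM in Con. The main results that rest on it are given with and without it. Of 10 epithelial marker genes, Lgals4 and Cdx1 were at or under 3 counts in every tumor. Krt8 was between 0 and 2.99 CPM in all tumors but Comb replicate 3 (30.7 CPM). Cdh1 had 16 to 157 counts per tumor and Vil1 0 to 75 counts. With markers this low and uneven, the labelled colon carcinoma cells were not followed by this list.

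B2m was the most abundant of the 10 genes, with a mean of 7685 CPM over the 12 tumors, and stood at rank 2 of the 13464 genes tested. Its level was 5305, 5373 and 6017 CPM in the 3 Con tumors and 5359, 5280 and 6552 CPM in the SFIH tumors. It was 5980, 8992 and 5991 CPM in PD and 7092, 9618 and 20657 CPM in Comb. All Comb tumors were above all Con and all SFIH tumors, while PD overlapped both, and the highest value was that of Comb replicate 3.

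The heavy chain gene H2-K1 was between 1463 and 1563 CPM in Con, the narrowest range of any member there (a coefficient of variation of 3.74%). Its level was 1942, 1409 and 1473 CPM in SFIH tumors, 1700, 1578 and 1743 CPM in PD tumors, and 1543, 1775 and 2257 CPM in Comb tumors. Every PD tumor was above every Con tumor, by a small amount. The second heavy chain gene, H2-D1, was 1064, 1904 and 2105 CPM in Con, 2011, 1844 and 1764 CPM in SFIH tumors, 1895, 1787 and 1558 CPM in PD, and 1819, 1921 and 2656 CPM in Comb. Con replicate 1 was thus the lowest of the 12 tumors for H2-D1 but not for H2-K1, and the ratio of H2-D1 to H2-K1 counts was 0.727 there against 0.894 to 1.35 in the other tumors.

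The transporter genes differed in how evenly they were expressed. Tap1 had a mean of 284 CPM and kept within 213 to 351 CPM over all 12 tumors, with 272, 251 and 285 CPM in Con, 303, 255 and 251 CPM in SFIH tumors, 332, 276 and 351 CPM in PD, and 286, 327 and 213 CPM in Comb. Tap2 had a mean of 91.4 CPM and spread 12.1-fold, with 12.9, 74.1 and 88.5 CPM in Con, 156, 100.1 and 86.2 CPM in SFIH tumors, 128, 56.3 and 61.3 CPM in PD, and 157, 111 and 66.2 CPM in Comb. Most of that spread came from Con replicate 1, where Tap2 rested on 147 counts. There the ratio of Tap1 to Tap2 counts was 21.1, against 1.83 to 5.72 in the other 11 tumors, a ratio that was chosen after the values had been seen.

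The chaperone gene Tapbp had 552, 449 and 501 CPM in Con, 732, 617 and 515 CPM in SFIH tumors, 533, 482 and 540 CPM in PD, and 630, 536 and 353 CPM in Comb. The transactivator gene Nlrc5 was the least abundant member and stood at rank 5851, with 25.6, 21.8 and 24.7 CPM in Con, 31.4, 29.0 and 24.1 CPM in SFIH tumors, 33.3, 25 and 31.9 CPM in PD, and 26.4, 34.6 and 17.1 CPM in Comb. For both genes, and for Tap1, the lowest of the 12 tumors was Comb replicate 3, the tumor that was highest for B2m.

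Of the immunoproteasome genes, Psmb8 had 376, 345 and 437 CPM in Con and 442, 432 and 388 CPM in SFIH. It had 349, 459 and 409 CPM in PD and 443, 539 and 824 CPM in Comb, so that every Comb tumor was above every Con tumor. Psmb9 had 58.4, 144 and 176 CPM in Con, 203, 269 and 197 CPM in SFIH tumors, 162, 122 and 126 CPM in PD, and 196, 236 and 158 CPM in Comb. All SFIH tumors were above all Con and all PD tumors for Psmb9, and the lowest tumor was Con replicate 1 once more. Psmb10 had 398, 338 and 373 CPM in Con, 477, 471 and 415 CPM in SFIH tumors, 464, 345 and 563 CPM in PD, and 428, 722 and 389 CPM in Comb, with all SFIH tumors above all Con tumors and the highest value in Comb replicate 2.

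**Figure D1:**
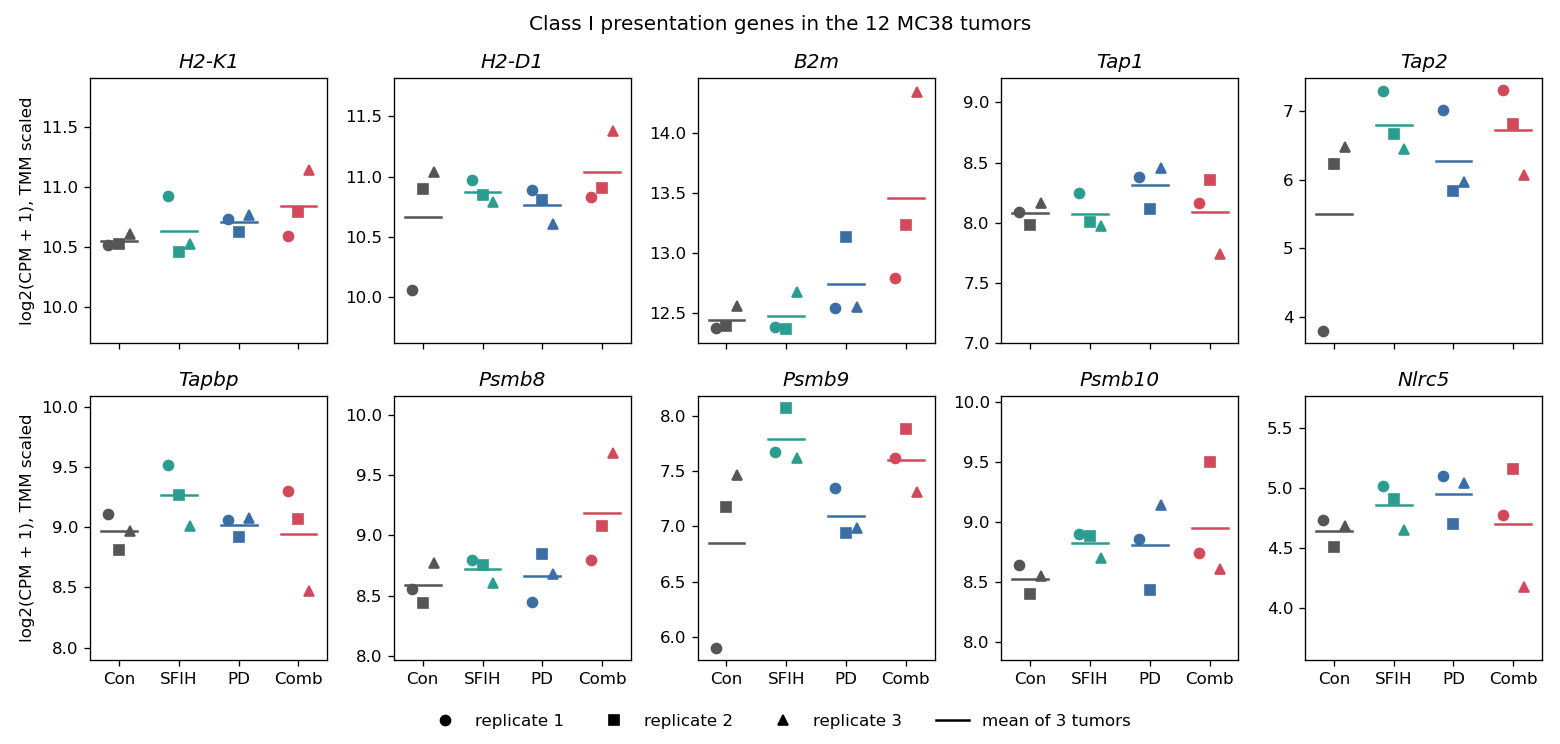
Level of each of the 10 class I presentation genes as log2(CPM + 1) after TMM scaling, by group, where each symbol is 1 tumor, its shape is the replicate number and the line is the mean of 3 tumors, and where the span of the vertical axis differs between genes. Con replicate 1 stands low for H2-D1, Tap2 and Psmb9, and Comb replicate 3 stands high for B2m and Psmb8 and low for Tap1, Tapbp and Nlrc5.

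By group mean, the order of the levels was Con, SFIH, PD, Comb for B2m (5565 ± 393, 5730 ± 713, 6988 ± 1736 and 12456 ± 7214 CPM, SD, n = 3) and for H2-K1 (1499 ± 56.0, 1608 ± 291, 1673 ± 85.4 and 1858 ± 364 CPM), and all neighbors in these orders overlapped. For Psmb9 the order was Con, PD, Comb, SFIH (126 ± 60.7, 137 ± 22.1, 197 ± 38.8 and 223 ± 40.3 CPM), where neighbors again overlapped. For Tap1 the 4 means were between 269 and 319 CPM, for Tapbp between 500.4 and 621 CPM and for Nlrc5 between 24 and 30.1 CPM, and no group of these 3 genes was apart from Con.

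The first comparison asked what SFIH alone did to these genes. All 10 had a higher fitted level in SFIH than in Con (9 by DESeq2 and 7 by limma with sample weights), with a median log2 fold change of 0.19, where the median of all genes was 0.02. By edgeR's quasi-likelihood test with Benjamini-Hochberg adjustment over all genes, none of the 10 passed an adjusted p of 0.05, as was the case for all other genes (0% called), and DESeq2 and limma with sample weights called no member either, of 4 and 0 genes in all. The lowest p of a member was that of Psmb9, with a log2 fold change of 0.82 ± 0.34 (SE; edgeR unadjusted p = 0.0342, adjusted p = 1). Psmb9 was the 1 member with an unadjusted p under 0.05, a share to be read against 2.25% of all genes. Psmb9 and Psmb10, the latter at 0.30 ± 0.25, were the 2 members whose SFIH tumors were all above all Con tumors, which held for 8.55% of all genes.

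Tap2 differed by 0.97 ± 0.60 on the log2 scale between SFIH and Con, Tapbp by 0.31 ± 0.22 and Nlrc5 by 0.23 ± 0.25. H2-D1 at 0.15, Psmb8 at 0.12, H2-K1 at 0.10, B2m at 0.04 and Tap1 at 0.00 were within their standard errors of 0. Without SFIH replicate 1, Tapbp differed by 0.17 and Nlrc5 by 0.14. The higher values of Psmb9 and Tap2 rested in part on Con replicate 1. Without that tumor, Psmb9 differed by 0.48 and Tap2 by 0.48, and H2-D1 turned to -0.10.

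The second comparison asked what the anti-PD-1 antibody alone did. Again all 10 genes had a higher fitted level in PD than in Con (7 of 10 without TMM scaling), with a median log2 fold change of 0.20 against 0.01 for all genes, and again none passed edgeR's adjusted p (0% of all genes called), nor an unadjusted p under 0.05 (3.99% of all genes). DESeq2 and limma called no member, of 6 and 83 genes in all. Tap2 differed most, at 0.49 ± 0.59, then B2m at 0.33 ± 0.35, Nlrc5 at 0.32 ± 0.25, Psmb10 at 0.31 ± 0.25 and Tap1 at 0.25 ± 0.19. H2-K1 was 0.16 ± 0.19 higher and was the 1 member whose PD tumors were all above all Con tumors, which held for 9.42% of all genes. Psmb9 at 0.12, Psmb8 at 0.07, Tapbp at 0.05 and H2-D1 at 0.05 differed least. Without Con replicate 1, Psmb9 was at -0.23, H2-D1 at -0.21 and Tap2 at 0.00, and without PD replicate 2, B2m was at 0.11 and Psmb10 at 0.48. Without PD replicate 3, Psmb10 was at 0.12 and Tap1 at 0.16.

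The third comparison set the combined treatment against Con, and here B2m and Psmb8 had the lowest unadjusted p of the members by edgeR. B2m was higher in Comb by 1.16 ± 0.35 on the log2 scale, a 2.24-fold difference with a 95% interval of 0.38 to 1.94 (log2), and all 3 Comb tumors were above all Con tumors (edgeR unadjusted p = 0.00722, adjusted p = 0.0837). Psmb8 was higher by 0.64 ± 0.23, or 1.56-fold, again in 3 of 3 tumors (edgeR unadjusted p = 0.0174, adjusted p = 0.120). These were the 2 members with an unadjusted p under 0.05, beside 25.3% of all genes, and the 2 members without overlap between the groups, beside 11.7% of all genes. None passed edgeR's adjusted p (0% of all genes called). The median of the 10 genes was 0.40, against -0.03 for all genes, and all 10 were above 0, or 7 of 10 without TMM scaling.

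The other members differed from Con by less in comparison with their error. Tap2 was at 0.93 ± 0.60, Psmb9 at 0.64 ± 0.34 and Psmb10 at 0.47 ± 0.25, while H2-D1 and H2-K1 were at 0.33 ± 0.26 and 0.31 ± 0.20. Nlrc5 at 0.12 ± 0.25, Tap1 at 0.03 ± 0.19 and Tapbp at 0.02 ± 0.22 were near 0, and these 3 turned below 0 without TMM scaling. Several of these values rested on single tumors. Without Con replicate 1, Tap2 was at 0.45, Psmb9 at 0.30 and H2-D1 at 0.088. Without Comb replicate 2, Psmb10 was at 0.13, and without Comb replicate 3, H2-K1 and H2-D1 were both at 0.15. The 95% intervals over all tumors left room for a change of Tap1 between -0.38 and 0.45 and of Tapbp between -0.47 and 0.51.

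The call of B2m depended on the test. DESeq2 called it in Comb against Con (1.20, adjusted p = 0.0142), where it called 14.9% of all genes, and limma with sample weights called it (0.75, adjusted p = 0.0133) together with Psmb10 (0.85, adjusted p = 0.0103), where it called 20.2% of all genes. Over all alternatives, the adjusted p of B2m was between 0.0100 and 0.348, that of Psmb8 between 0.0196 and 0.404 and that of Psmb10 between 0.0103 and 0.690. A single tumor decided much of this. Without Comb replicate 3, B2m was at 0.59 ± 0.20 (edgeR adjusted p = 0.161), Psmb8 at 0.35 ± 0.16 (adjusted p = 0.260) and Psmb10 at 0.64 ± 0.23 (adjusted p = 0.177), and edgeR called no member, with 0.0367% of all genes called. DESeq2 (B2m adjusted p = 0.0737; 5.44% of all genes called) and limma with sample weights (0.0147% of all genes) likewise called no member without that tumor. With it left out, B2m, Psmb8, Psmb9 (0.78) and Psmb10 had an unadjusted p under 0.05 by edgeR, 4 members beside 18.8% of all genes. Without Comb replicate 1 instead, edgeR called B2m (1.45, adjusted p = 0.0100) and Psmb8 (0.82, adjusted p = 0.0196), where it called 28.5% of all genes.

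**Figure D2:**
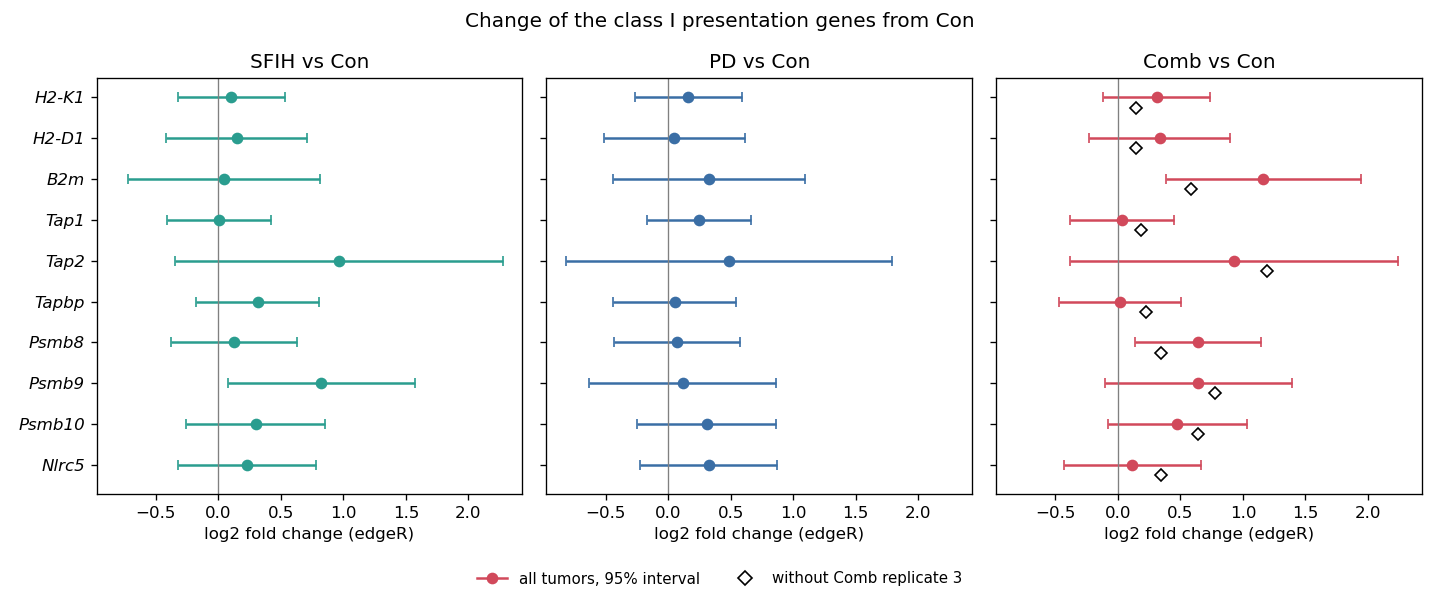
Log2 fold change of each member from Con in SFIH, PD and Comb by edgeR, where the circles and bars are the estimate and its 95% interval over all 12 tumors and the open diamonds are the estimate without Comb replicate 3. The 3 comparisons share the Con tumors. B2m and Psmb8 in Comb and Psmb9 in SFIH have intervals above 0, and the diamonds of B2m and Psmb8 are at 0.59 and 0.35.

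Comb was also set against each single treatment. Against PD, B2m was higher by 0.83 ± 0.35 (edgeR adjusted p = 0.260) and Psmb8 by 0.57 ± 0.23 (adjusted p = 0.254), the 2 members with an unadjusted p under 0.05 beside 18% of all genes, and no member was without overlap (6.16% of all genes). Against SFIH, B2m was higher by 1.12 ± 0.35 (adjusted p = 0.142) and Psmb8 by 0.52 ± 0.23 (adjusted p = 0.256), again the 2 members with an unadjusted p under 0.05, beside 19% of all genes. Both were without overlap from SFIH (7.65% of all genes), for Psmb8 by a margin of 443 to 442 CPM. No member passed edgeR's adjusted p in these comparisons (0% of all genes called in either).

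DESeq2 called B2m against SFIH (1.16, adjusted p = 0.0273; 8.62% of all genes called), as did limma with sample weights (0.76, adjusted p = 0.0139; 15% of all genes). The adjusted p of B2m against SFIH was between 0.0139 and 0.495 over the alternatives. Against PD, both tools called no member, of 417 and 1074 genes in all. Without Comb replicate 3, neither tool called a member in Comb against SFIH (B2m by DESeq2, adjusted p = 0.225), where DESeq2 called 0.691% and limma 0% of all genes. By edgeR, without that tumor, B2m was 0.26 above PD and 0.54 above SFIH, and Psmb8 0.28 and 0.22. With Comb replicate 1 left out instead, edgeR called B2m and Psmb8 against PD (15.2% of all genes called) and against SFIH (22.5%). Tap1 (-0.21 ± 0.19) and Nlrc5 (-0.21 ± 0.25) had lower fitted levels in Comb than in PD, and Tapbp (-0.30 ± 0.22) and Psmb9 (-0.18 ± 0.34) lower ones than in SFIH over all tumors, none with an unadjusted p under 0.05. The differences from PD without Comb replicate 3 were -0.061 for Tap1 and 0.020 for Nlrc5, and those from SFIH -0.092 for Tapbp and -0.048 for Psmb9.

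With the antibody averaged over mice with and without SFIH, 6 tumors against 6, B2m was higher by 0.72 ± 0.25 (edgeR adjusted p = 0.153), the 1 member with an unadjusted p under 0.05 beside 18.7% of all genes. No member passed the adjusted p (0% of all genes called). DESeq2 called B2m (0.74, adjusted p = 0.0496; 9.31% of all genes called), also without Comb replicate 3 (0.45, adjusted p = 0.0351; 7.3%). Limma with sample weights called B2m (0.46, adjusted p = 0.0139), Tap1 (0.29) and Psmb10 (0.48), with 20.7% of all genes. Limma without Comb replicate 3 called no member and 0.0514% of all genes, with B2m at 0.36, Tap1 at 0.26 and Psmb10 at 0.35. Without Comb replicate 1, edgeR called B2m in this average (17.1% of all genes). The adjusted p of B2m was between 0.0139 and 0.306 over the alternatives. For the interaction, which asks whether the antibody's effect differed with SFIH, B2m had 0.79 ± 0.50, Psmb8 0.44 ± 0.32 and Nlrc5 -0.44 ± 0.35, and without Comb replicate 3 these were 0.22, 0.15 and -0.21. No member had an unadjusted p under 0.05 (2.55% of all genes) or an adjusted p under 0.05 by edgeR (0% of all genes, lowest adjusted p of a member 0.894), and DESeq2 and limma called no member, of 1 and 0 genes.

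The exchange of proteasome subunits was read within each tumor, as the log2 ratio of the counts of an immunoproteasome gene to those of the constitutive gene whose place it takes, which does not depend on library scaling. Psmb8 to Psmb5 was 1.01 ± 0.23 in Con, 1.04 ± 0.32 in SFIH tumors, 1.0 ± 0.22 in PD and 1.33 ± 0.38 in Comb (SD, n = 3). Psmb9 to Psmb6 was -0.94 ± 0.87 in Con, where Con replicate 1 had -1.93, and -0.12 ± 0.24, -0.48 ± 0.30 and -0.36 ± 0.51 in the other 3 groups. Psmb10 to Psmb7 was 0.40 ± 0.42, 0.15 ± 0.25, 0.33 ± 0.45 and 0.40 ± 0.35. The highest Psmb8 ratio in Comb was that of Comb replicate 3, with 1.77 against 1.12 and 1.10 in the other 2 Comb tumors.

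With anti-PD-1 against without it, the Psmb8 ratio differed by 0.14 (two-sided exact permutation p = 0.445), the Psmb9 ratio by 0.11 (exact permutation p = 0.750) and the Psmb10 ratio by 0.09 (exact permutation p = 0.665), with the labels exchanged within the tumors of equal SFIH treatment in 400 arrangements and a smallest possible p of 0.005. Over the 3 ratios the adjusted p was 0.750 for each. Without Comb replicate 3 the difference in the Psmb8 ratio was 0.032 (exact permutation p = 0.845). The Psmb9 ratio was -0.13 without Con replicate 1 and the Psmb10 ratio -0.02 without PD replicate 3. The constitutive genes varied as well, so that the ratios also carry their changes. Psmb5 was between 177 and 251 CPM and Psmb6 between 179 and 301 CPM. Psmb7 was between 217 CPM in Con replicate 1 and 445 CPM in SFIH replicate 3.

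**Figure D3:**
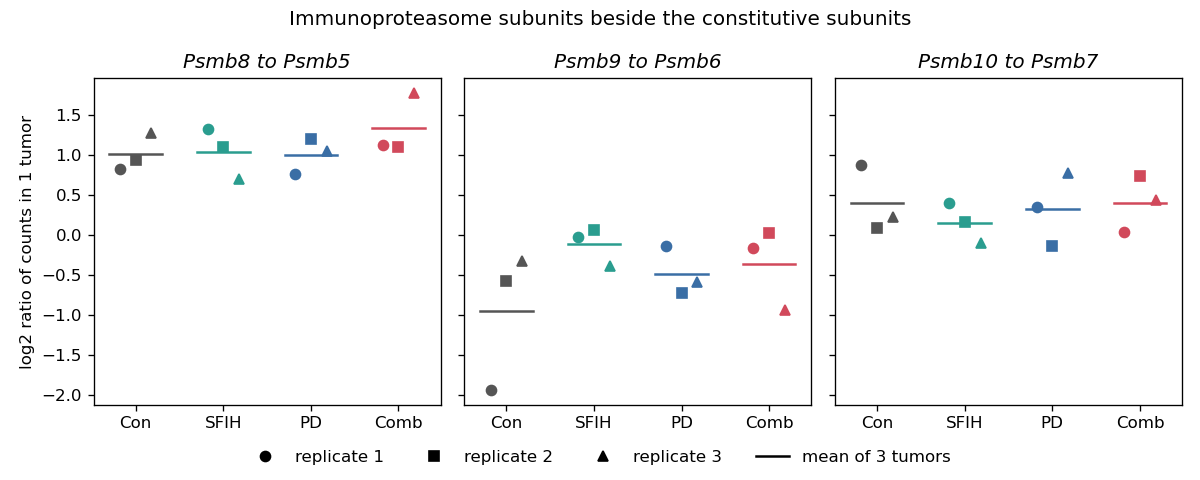
Log2 ratio of the counts of each immunoproteasome gene to those of its constitutive counterpart in the same tumor, by group, where symbols are tumors and lines are means of 3. The groups overlap for all 3 ratios, and the lowest value is -1.93, for Psmb9 to Psmb6 in Con replicate 1.

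The 10 genes did not vary as 1 block across the tumors. Over the 45 pairs of members, the correlation of log2(CPM + 1) over the 12 tumors had a median of 0.23 and reached from -0.69 for B2m with Tapbp to 0.91 for B2m with Psmb8, and it was below 0 in 13 pairs. Without Comb replicate 3 the median was 0.31 and 1 pair was below 0. Tap1 and Nlrc5 varied together at 0.89, and Tap2 and Psmb9 also at 0.89, a value in which Con replicate 1 takes part. The divergent neighbors Tap1 and Psmb9, whose windows overlap, had a ratio of counts of 4.65 in Con replicate 1, 1.62 to 1.75 in the other Con tumors, 0.948 to 1.49 in the SFIH tumors, 2.05 to 2.78 in PD and 1.35 to 1.46 in Comb. The PD tumors thus had more Tap1 for their Psmb9 than the SFIH and Comb tumors, with no overlap, in a ratio chosen after the values had been seen and not tested. These correlations share the libraries and their scaling and are given as a description.

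B2m and its heavy chains also came apart. The ratio of B2m counts to the summed counts of H2-K1 and H2-D1 was 2.10, 1.59 and 1.64 in Con and 1.36, 1.62 and 2.02 in SFIH. It was 1.66, 2.67 and 1.82 in PD and 2.11, 2.60 and 4.20 in Comb, so that all Comb tumors were above all Con and SFIH tumors, for Comb replicate 1 and Con replicate 1 by 2.11 to 2.10. This ratio was chosen after the values had been seen and was not tested.

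The markers of immune cells varied with the members to different degrees. The summed level of 7 leukocyte genes (Ptprc, Coro1a, Laptm5, Cd52, Cd53, Arhgdib and Cytip, each above 3 counts in at least 1 tumor) was 276 to 478 CPM in Con, 395 to 516 CPM in the SFIH tumors, 513 to 1022 CPM in PD and 582 to 4642 CPM in Comb. Over the 12 tumors its correlation with B2m was 0.96 and with Psmb8 0.94, and without Comb replicate 3 these were 0.87 and 0.80. With H2-K1 it was 0.79, or 0.48 without that tumor. Tap1 had -0.28, Nlrc5 -0.36 and Tapbp -0.56, which without Comb replicate 3 were 0.53, 0.52 and 0.04. Psmb10 had 0.16, or 0.54 without that tumor, and H2-D1 0.49, or 0.070. Tap2 and Psmb9 were near 0 in both cases, at -0.02 and 0.04 over all tumors and 0.09 and 0.09 without it.

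Marker sums of several other cell types, but not of all, were higher in the Comb tumors. The 5 NK cell genes summed to 30.3 to 40.8 CPM in Con and to 28.8, 30.5 and 109 CPM in Comb. The 7 skin genes summed to 8.83 to 15.4 CPM in Con and to 7.14, 7.19 and 479 CPM in Comb. The summed level of 8 macrophage genes was 542 to 903 CPM in Con and 1059, 4002 and 14878 CPM in the 3 Comb tumors from lowest to highest, and that of 8 T cell genes 24 to 40.5 CPM in Con and 37.4, 133 and 344 CPM in Comb. The 7 fibroblast genes summed to 2152 to 2647 CPM in Con and to 2923, 11718 and 22785 CPM in Comb, and the 9 skeletal muscle genes to 11.9, 631 and 6559 CPM in Comb. The part of these cells in the higher B2m and Psmb8 of Comb was not tested.

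**Figure D4:**
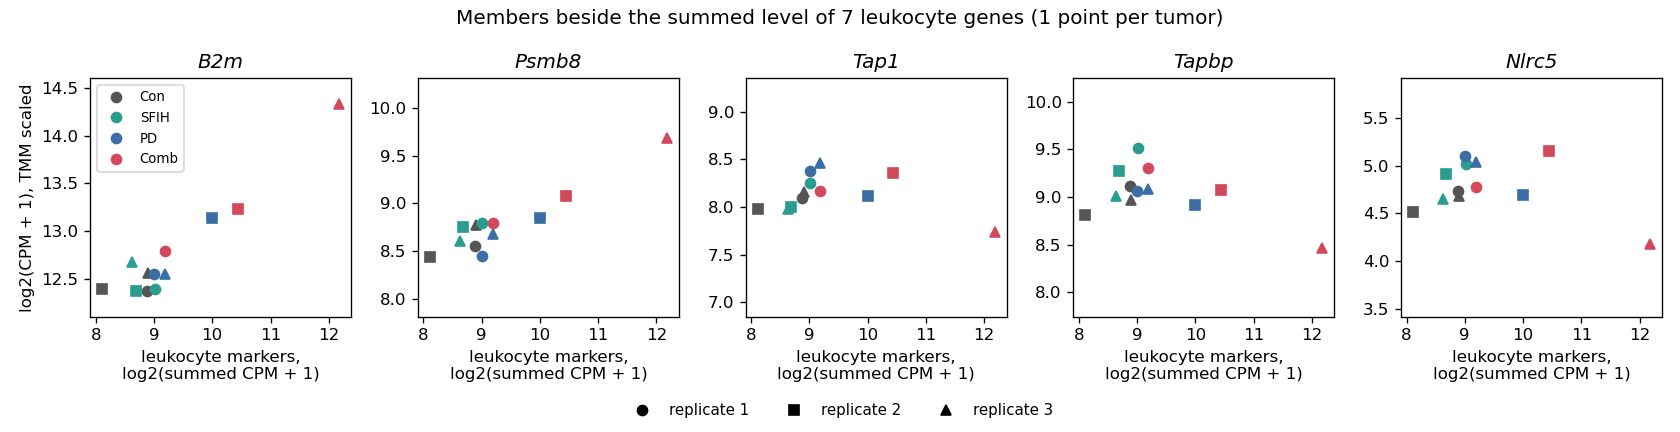
Level of 5 members as log2(CPM + 1) against the summed level of 7 leukocyte genes as log2(CPM + 1), with 1 point per tumor, colored by group and shaped by replicate. B2m and Psmb8 climb with the leukocyte genes (r = 0.96 and 0.94 over 12 tumors), and the point at the far right is Comb replicate 3, without which r is 0.53 for Tap1, 0.52 for Nlrc5 and 0.04 for Tapbp.

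The genes most like the members were ranked by their correlation with the mean z-score of the 10. Socs1, the feedback inhibitor of interferon gamma signaling, came first with r = 0.91 over 12 tumors (rho = 0.80, and r = 0.77 without the 2 tumors farthest from the median, Con replicates 1 and 2). Gm20300 (r = 0.89), the integrin gene Itgae (0.84), the mitochondrial carrier gene Slc25a5 (0.83), Sp4 (0.83), Slc35f5 (0.83) and Mettl25 (0.83) followed. Socs1 was 6.93, 11.6 and 17 CPM in Con, 25.4, 17.9 and 14.3 CPM in SFIH tumors, 21.1, 22.9 and 21.1 CPM in PD, and 23.6, 29.7 and 19.6 CPM in Comb. Socs1 was chosen for its likeness to the members, whose mean z-score was lowest in Con replicates 1 and 2. Its lower level in Con is therefore in part fixed by that choice. For this reason no conclusion is drawn from its tests against Con, although Socs1 is among the interferon genes counted below.

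Around the members, 10 further lists of genes in the same pathway were counted, and edgeR called no gene of any list in any comparison (0% of all genes called). The list of transcription regulators of class I genes had 18 genes tested, with a median log2 fold change of -0.09 with SFIH, 0.09 with the antibody and -0.07 with both (0.03 without Comb replicate 3), against Con. Irf1, the interferon-induced activator of class I genes, was 298, 364 and 388 CPM in Con and 263, 276 and 279 CPM in SFIH. It was 532, 486 and 556 CPM in PD and 346, 543 and 381 CPM in Comb. All PD tumors were thus above all Con tumors, which held for 9.42% of all genes. All SFIH tumors were below all Con tumors, which held for 8.86% of all genes, while Comb overlapped Con. Irf1 differed from Con by 0.58 ± 0.19 in PD (edgeR unadjusted p = 0.0117, adjusted p = 1, between 0.0439 and 1 over the alternatives), by -0.36 ± 0.19 in SFIH and by 0.27 ± 0.19 in Comb. The last of these for Irf1 was 0.042 without Comb replicate 2 and 0.41 without Comb replicate 1, with an adjusted p between 0.0271 (limma with sample weights) and 0.998 over the alternatives. Nfkb2, a subunit gene of NF-κB, had 0.01, -0.34 and -0.63 in SFIH, PD and Comb, and Ezh2, a silencer of class I genes, -0.27, 0.09 and -0.66, where Comb replicate 3 had 29.5 CPM and the other tumors 201 to 305 CPM. Without that tumor Nfkb2 was at -0.41 and Ezh2 at -0.17 in Comb.

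Of 11 tested genes for interferon ligands, receptors and their feedback, 7 had an unadjusted p under 0.05 in Comb (25.3% of all genes), all higher than Con, and the median was 0.77. Without Comb replicate 3 these were 5 genes (18.8% of all genes) and 0.52. Ifng itself was low, at 0.70, 0.20 and 1.25 CPM in Con and 2.11, 0.52 and 1.15 CPM in SFIH. It was 1.82, 6.00 and 1.90 CPM in PD and 1.36, 10.6 and 11.1 CPM in Comb. Con replicate 2 rested on 2 counts, under the floor of 3 counts, so that the sizes of the changes from Con are uncertain. All PD tumors were above all Con tumors (9.42% of all genes). SFIH replicate 1 was above PD replicates 1 and 3, and Comb replicate 1 was close to the highest Con tumor. Ifng differed from Con by 2.13 ± 0.91 in PD (edgeR adjusted p = 1) and by 3.38 ± 0.93 in Comb (adjusted p = 0.0717, or 3.01 and 0.135 without Comb replicate 3). The receptor gene Ifngr1 was 39.0 to 55.9 CPM in Con and 61.4, 134 and 303 CPM in Comb (1.80 ± 0.46, edgeR adjusted p = 0.0671, or 1.03 ± 0.30 and 0.120 without Comb replicate 3). Jak1, the most abundant of the list, was at -0.07 ± 0.21 in Comb (-0.25 without Comb replicate 3) and -0.36 ± 0.21 in SFIH. Socs3, a feedback inhibitor, was at 0.13 ± 0.24 and the receptor gene Ifnar2 at 0.59 ± 0.25 in Comb (0.26 and 0.25 without Comb replicate 3).

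The other class I heavy chain genes had 14 members tested of 25 in the table, with medians of 0.15 (SFIH), 0.17 (PD) and 0.40 (Comb). The nonclassical genes H2-T22 and H2-T9, near-identical copies between which the counts could have been split, were both low in Con replicate 1, at 36.0 and 29.3 CPM against 97.2 to 190 and 88.7 to 188 CPM in the other tumors. H2-Q9 was 35.5, 25.3 and 44.2 CPM in Con, 53.2, 107 and 61.8 CPM in PD and 42.6, 88.7 and 182 CPM in Comb. It differed from Con by 1.08 ± 0.46 in PD and 1.58 ± 0.47 in Comb (edgeR adjusted p = 0.0792, between 0.00715 and 0.338 over the alternatives). Single tumors moved these values for H2-Q9, to 0.91 without Comb replicate 3, to 1.95 without Comb replicate 1 (edgeR adjusted p = 0.00715) and, in PD, to 0.72 without PD replicate 2. Of the members, H2-K1 shared 24 of its 1323 stretches of 75 bases near the 3′ end with other class I genes, all 24 of them with H2-D1, Tapbp 14 of 1006 with the overlapping gene Zbtb22, and the other 8 members shared none of the stretches near their own ends.

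For the chaperones and trimming enzymes that load class I molecules, the median over 12 tested genes was 0.01 (SFIH), 0.05 (PD) and -0.17 (Comb), and the last of these turned to 0.17 without Comb replicate 3. Calr (calreticulin) was at 0.33 ± 0.30, Canx (calnexin) at -0.23 ± 0.27 and Hspa5 at -0.11 ± 0.22 in Comb, and without Comb replicate 3 these were 0.64, 0.05 and 0.10. The 14 genes of the constitutive 20S proteasome had medians of 0.18, 0.04 and 0.27, and the 17 genes of the 19S regulatory particle 0.17, 0.00 and -0.14 (0.12 in Comb without Comb replicate 3). The most abundant 20S genes, Psma7, Psma2 and Psmb1, were at -0.26 ± 0.32, 0.26 ± 0.19 and 0.33 ± 0.19 in Comb (0.089, 0.33 and 0.16 without Comb replicate 3). The most abundant 19S genes, Psmd4, Psmd7 and Psmd1, were at -0.06 ± 0.25, 0.02 ± 0.46 and -0.18 ± 0.30 (0.17, 0.47 and 0.15 without that tumor). Of the 7 activators and assembly factors, the assembly factor gene Pomp was 0.42 ± 0.16 higher in PD and 0.57 ± 0.16 higher in Comb (edgeR adjusted p = 1 and 0.0750), with all PD tumors above all Con tumors (9.42% of all genes). The list had medians of 0.06, 0.20 and 0.42. In Comb 3 of its genes were higher and 1 lower at an unadjusted p under 0.05 (25.3% of all genes). Without Comb replicate 3 these were 2 higher and 1 lower (18.8% of all genes). Psme1, a subunit of the interferon-inducible activator, was at 0.42 ± 0.18 in Comb (edgeR adjusted p = 0.177) and Psme2b, a near copy of its partner gene Psme2, at 0.42 ± 0.22. Psme4, a gene for another activator that was picked after its values had been seen, was at -0.74 ± 0.22 (adjusted p = 0.0785).

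The lists that belong to immune cells had higher medians than the members in Comb. In Comb against Con, the medians were 3.57 over 9 class II presentation genes, 2.12 over 13 receptors and coreceptors of class I and 1.79 over 8 cross-presentation genes, against 0.40 over the members. Of these, 8, 12 and 7 genes had an unadjusted p under 0.05, all higher than Con, beside 25.3% of all genes. Without Comb replicate 3 the medians were 2.32, 1.26 and 0.65, against 0.35 over the members, and 8, 6 and 2 genes had an unadjusted p under 0.05, beside 18.8% of all genes. Cd74, the class II invariant chain, was 49.4 to 127 CPM in Con, 235, 492 and 376 CPM in PD and 219, 1357 and 10025 CPM in Comb. Pirb, an inhibitory class I receptor of myeloid cells, was 9.4 to 15.4 CPM in Con and 23.9, 50.8 and 191 CPM in Comb, and Cd8a, the coreceptor of cytotoxic T cells, 4.2 to 8.1 CPM in Con and 4.3, 21.1 and 20.2 CPM in Comb. H2-Aa, a class II chain, was at 4.85 ± 1.10 in Comb and Ctss, the protease cathepsin S, at 2.76 ± 0.75, and without Comb replicate 3 these were 2.72 and 1.21. Among the receptors, Lilrb4a was at 2.54 ± 0.68 and Klrc1 at 2.78 ± 0.77 (1.15 and 1.82 without that tumor). Of the cross-presentation genes, the NADPH oxidase gene Cybb was at 2.02 ± 0.54, the thiol reductase gene Ifi30 at 1.58 ± 0.55 and the translocon gene Sec61a1 at -0.37 ± 0.19 (1.29, 0.28 and -0.25 without that tumor). Over the 3 lists the medians in PD were 1.95, 0.93 and 0.27, and in SFIH 0.06, 0.13 and 0.08, below that of the members (0.19).

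**Figure D5:**
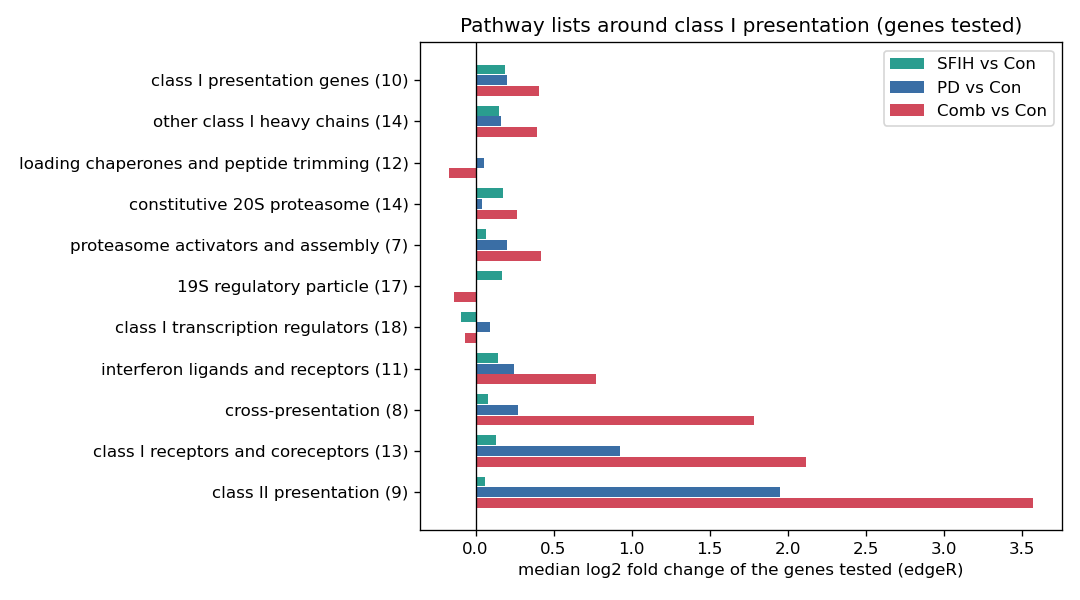
Median log2 fold change from Con by edgeR for the 10 members and for 10 lists of related genes, in SFIH, PD and Comb, with the number of genes tested in brackets. The members stand at 0.19, 0.20 and 0.40, and class II presentation at 0.06, 1.95 and 3.57.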

How the data were processed

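RNA of 12 MC38 tumors (TRIzol) had been made into QuantSeq 3′ mRNA-Seq libraries and read on a NextSeq 500 as single ends of 75 bp. The authors deposited raw read counts per gene symbol, with 1 column per tumor, and the aligner, genome build and annotation were not given in the sources used here. Columns were assigned to groups by their names and the sample labels. The labels do not state that replicates came from separate mice, so that p-values measure the spread between these tumors.

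Counts were analyzed in R 4.3.3 with edgeR 4.0.16 (filterByExpr, TMM, quasi-likelihood test, 1 fit of all 12 tumors without a block, two-sided), adjusted by Benjamini-Hochberg over 13464 genes with a threshold of 0.05. DESeq2 1.42.0 and limma 3.58.1 (voom with sample weights) were alternatives, with other scalings, filters and fits, a replicate block and each tumor left out. Levels are CPM, or log2(CPM + 1), after TMM. A gene at 3 counts or fewer was taken as at the floor, which covers counting error only, and replicates differed by more than counting noise. Ratios of counts used a pseudocount of 1 and exact permutation tests. The genes named are the members, the 3 most abundant genes of each list and the 8 genes most like the members (1 of which is not reported here), and further genes were picked with their values in view. The members and lists were chosen with earlier results of these data known, and H2-Ke6, an enzyme gene, was taken out of the heavy chain list after its values had been seen. Steps were tested on simulated data. Figures were drawn with Python 3.11.15 and matplotlib 3.10.9.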

Additional observations from a re-analysis of the deposited data

How the results depend on the processing

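The count of members called was 0 by edgeR in all 7 comparisons and stayed 0 under the other scalings and filters, without Rn45s, with the replicate block and, in the 5 comparisons between 2 groups, with the compared groups alone. DESeq2 called 1 member in Comb against Con, against SFIH and in the average over anti-PD-1 (14.9%, 8.62% and 9.31% of all genes). In the average it also called 1 without Comb replicate 3 (7.3% of all genes). Limma with sample weights called 2, 1 and 3 (20.2%, 15% and 20.7% of all genes). With 1 tumor left out, edgeR called 0 to 2 members in Comb against Con, PD and SFIH and 0 to 1 in the average. In each case the higher count came without Comb replicate 1, where 28.5%, 15.2%, 22.5% and 17.1% of all genes were called. The cause was not tested.

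Without TMM scaling the median of all genes moved from -0.03 to -0.29 in Comb against Con and from -0.05 to -0.31 against SFIH, and the members' medians became 0.12 (Comb against Con), 0.044 (PD), -0.17 (SFIH), -0.027 (average) and -0.35 (interaction, or 0.017 by limma). With 1 tumor left out, the median was between -0.084 and 0.24 in Comb against SFIH and between -0.38 and 0.014 for the interaction. Small changes turned sign. In SFIH these were H2-K1 (-0.0100) and B2m (-0.0097) by limma and Tap1 by DESeq2 (-0.00026), by limma (-0.054) and with the 2 groups alone (-0.0097). In PD they were H2-D1 (-0.061), Tapbp (-0.043) and Psmb8 (-0.034) without TMM and Psmb8 (-0.014) by limma. In Comb they were Tap1 (-0.22), Tapbp (-0.21) and Nlrc5 (-0.12) without TMM and Tap1 (-0.0035) and Tapbp (-0.014) without the filter.

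With each tumor left out in turn, SFIH gave -0.064 to 0.18 for H2-K1, -0.10 to 0.33 for H2-D1, -0.064 to 0.095 for B2m and -0.097 to 0.054 for Tap1. PD gave -0.21 to 0.23 for H2-D1, -0.0010 to 0.90 for Tap2, -0.034 to 0.12 for Tapbp, -0.025 to 0.17 for Psmb8 and -0.23 to 0.43 for Psmb9. Comb gave -0.12 to 0.19 for Tap1, -0.16 to 0.22 for Tapbp and -0.15 to 0.34 for Nlrc5. The ratios with anti-PD-1 were between -0.13 and 0.27 for Psmb9 to Psmb6 and between -0.018 and 0.21 for Psmb10 to Psmb7.

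The labels do not state whether replicate numbers pair the tumors. By correlation, 2 of 12 tumors were closest to a tumor of their own number, and 6 of 18 pairs of equal number had r over 0.1. Such counts do not decide whether tumors were paired. With the replicate block, no member's call changed, Tap1 in SFIH was at -0.0024 and Tapbp in Comb at -0.0063, the median in Comb against Con was 0.40 and B2m was at 1.08 (edgeR adjusted p = 0.144). The least abundant member, Nlrc5, rested on 142 to 431 counts per tumor. In Con it had 217 to 292 counts and a coefficient of variation of 8.36%, of which counting error can be a sizeable part.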
